A study of Homo sapiens with 24 samples.

Results

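The nuclear genes of the mitochondrial respiratory chain were examined in human sensory neuron cultures exposed to cytokines. Members were chosen by symbol: the NDUFA, NDUFB, NDUFC, NDUFS and NDUFV genes for complex I, the SDH genes for complex II, the UQCR genes for complex III, the COX4 to COX8 genes for complex IV, and the ATP5F, ATP5M and ATP5P genes for the ATP synthase, complex V. A count table of 36468 entries held 84 such symbols. Of these, 79 had a total of at least 10 counts over the 24 libraries and were analysed, out of 29377 entries that reached the same minimum. They comprised 36 genes of complex I, 4 of complex II, 9 of complex III, 12 of complex IV and 18 of complex V.

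Sensory neurons were derived from H9WAO9 human pluripotent stem cells through vagal neural crest spheroids and matured before exposure. All cultures carried the same wild-type genotype, and 4 groups of 6 libraries were sequenced: vehicle (PBS with bovine serum albumin), TGF-β at 2 ng/ml, IL-4 at 10 ng/ml with IL-13 at 3 ng/ml, and IL-6, whose dose the labels do not give. TGF-β and IL-4 + IL-13 were given for 5 days. Each of 6 batches, taken as batches of differentiation, contributed 1 library to every group, so treatments were compared within batch. The batch numbers follow the order of the libraries. The paper states 5 RNA samples per condition where each group here held 6 libraries, and the reason for this difference is not given.

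The respiratory chain passes electrons from NADH, through complex I, and from succinate, through complex II, by way of ubiquinone to complex III, cytochrome c and complex IV, where oxygen is reduced. Complexes I, III and IV pump protons across the inner mitochondrial membrane, and complex V uses the return flow to make ATP. Neurons depend on this pathway for the ATP that ion pumping and axonal transport consume. The core of complexes I, III, IV and V also contains subunits encoded by mitochondrial DNA (mtDNA), so both genomes supply the chain, whereas complex II is encoded by nuclear genes alone.

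Libraries held between 33342682 and 39817784 counts. The 79 genes took between 0.520 and 0.619% of the counts, and the 13 protein genes of mtDNA took between 2.89 and 5.94%. The 11 neuronal markers examined all reached the minimum count, with a summed level between 1546 and 11455 CPM (counts scaled to a common library size), and the 7 mesenchymal markers summed to between 2670 and 13442 CPM, so the cultures held neurons beside other cells. In such bulk libraries fewer cells of a type and less RNA per cell cannot be told apart. Vehicle batch 2 stood apart from its batch: its deviations correlated with those of the treated libraries of batch 4 at a mean r of 0.48 and with those of its own batch at 0.044.

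None of the respiratory chain genes passed an adjusted p of 0.05, here termed called, in any comparison with vehicle. In the comparison of TGF-β with IL-4 + IL-13, 3 genes were lower under TGF-β: UQCR11, UQCR10 and NDUFB5. Their log2 fold changes lay between -0.25 and -0.19. The promoters of UQCR11, UQCR10 and NDUFA1 are shown because these had the lowest p in that comparison among genes with a promoter sequence. NDUFB5 had no promoter sequence. NDUFA1, the gene next in rank by p, was not among the 3 called. Each line gives the 150 bases just upstream of the RefSeq gene start in GRCh38.p14, written 5′ to 3′ on the strand of the gene, and capitals mark matches to the ETS letters CCGGAAG on either strand.
UQCR11: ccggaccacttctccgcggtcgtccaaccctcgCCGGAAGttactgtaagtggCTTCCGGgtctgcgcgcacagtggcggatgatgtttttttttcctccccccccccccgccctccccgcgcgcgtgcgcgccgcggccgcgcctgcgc
UQCR10: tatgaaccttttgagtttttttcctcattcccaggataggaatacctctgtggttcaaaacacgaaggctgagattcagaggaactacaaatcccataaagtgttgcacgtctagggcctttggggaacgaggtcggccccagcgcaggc
NDUFA1: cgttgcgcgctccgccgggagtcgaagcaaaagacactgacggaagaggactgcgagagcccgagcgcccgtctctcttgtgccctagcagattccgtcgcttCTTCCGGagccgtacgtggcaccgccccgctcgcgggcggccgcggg

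The UQCR11 stretch (chr19:1605463-1605612, minus strand) held 2 ETS matches, the NDUFA1 stretch (chrX:119871682-119871831, plus strand) held 1, and the UQCR10 stretch (chr22:29767219-29767368, plus strand) held none. RefSeq promoters of 300 bases, from 250 before to 50 after the gene start, were matched by symbol for 64 of the 79 genes, and both strands were searched. The ETS letters were present in 31.2% of those 64 promoters and in 10.7% of all 27305 promoters. The letters GCGCATGCG, bound by NRF1, a regulator of nuclear genes for mitochondrial proteins, were present in 15.6% against 2.10% of all promoters. The letters AANATGGCG, bound by YY1, were present in 25% against 3.37%. CCAAT was present in 32.8% against 35.7%, the cyclic AMP element TGACGTCA in 7.81% against 1.98%, and the oestrogen-related receptor letters TCAAGGTCA in 1.56% against 0.359%. These are matches of letters in a window, not measured binding. The 27305 promoters were not matched to the 64 for gene type or base content. Whether the differences in share are particular to respiratory chain genes was therefore not tested.

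Levels between genes were compared as CPM per kb of the canonical GENCODE 44 transcript, a length that may differ from the transcripts these cells use. Only the first entry of a symbol was used, so genes with counts split over entries read low. The SDHB entry held 30.3% of its counts, which can lower the complex II median. By complex, the median gene stood at 43.7 CPM per kb in complex I, 27.7 in complex II, 33.6 in complex III, 101 in complex IV and 78.5 in complex V. The highest was ATP5F1B, the catalytic beta subunit of the ATP synthase, at 332 ± 34 CPM per kb (SD, n = 24). COX6A1, COX4I1 and COX7C of complex IV followed at 235, 223 and 205 CPM per kb, with SDs of 24, 22 and 27.4. The ranges of these 3 over the libraries overlapped, and differences between them within a library were not tested. NDUFS5 led complex I at 159 ± 24.6, UQCRH, the hinge protein, led complex III at 137 ± 13.3, and SDHC, a membrane anchor, led complex II at 51.5 ± 9.33 CPM per kb.

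**Figure D1:**
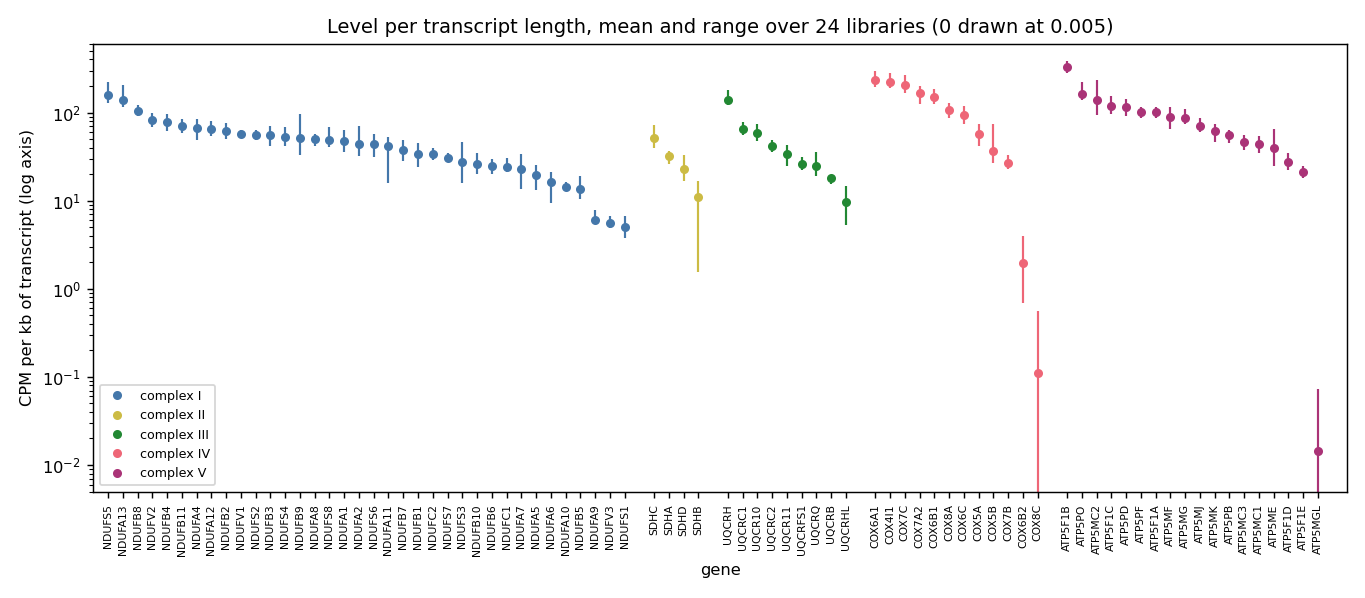
Level of each of the 79 genes in CPM per kb of transcript, on a log axis, grouped by complex. Points are means over 24 libraries and lines run from the lowest to the highest library; ATP5F1B is the highest at 332, and COX6B2, COX8C and ATP5MGL are the lowest.

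Tissue-specific isoforms were scarce. COX4I2, a hypoxia-responsive form of COX4I1, totalled 2 counts over 24 libraries, COX7A1, the muscle form of COX7A2, totalled 7, and COX6A2, the muscle form of COX6A1, and COX7B2, a testis form of COX7B, were at 0. These 4 and NDUFA3, at 0 in each of its 10 entries, fell under the minimum. Zero counts were common among symbols split over many entries: 63.3% of the 30 symbols with 10 or more entries were at 0 throughout, against 4.38% of the 31582 symbols with 1 entry, and the level of NDUFA3 could not be read from this table. COX7A1 lay just outside the minimum at 7 counts and ATP5MGL just inside it at 10. COX8C, the testis form of COX8A, had 53 counts in the entry used and 84 over both of its entries.

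The genes ATP5MC1, ATP5MC2 and ATP5MC3 encode the same mature c-ring subunit of the ATP synthase, and they gave 12.2%, 36.7% and 51.1% of the counts of the 3 together over all libraries. The ATP5MC2 share was 33.9 ± 4.92% (SD, n = 6) in vehicle, 36 ± 7.95% with TGF-β, 37.2 ± 6.54% with IL-4 + IL-13 and 39.8 ± 6.95% with IL-6, and the ranges of all 4 groups overlapped. COX6B2, the testis form, made up 4.13 ± 1.66% (SD, n = 24) of the COX6B counts. Its transcript is the longer, and per kb it stood at 1.98 CPM against 150 for COX6B1. NDUFA4L2, a hypoxia-induced relative of NDUFA4, made up 3.30 ± 3.34% of the pair and reached 14.8% in 1 vehicle library. NDUFA4 was grouped here with complex I by its symbol, although its protein is known as a subunit of complex IV. UQCRHL, a near-identical intronless copy of UQCRH, took 3.51 ± 0.51% of that pair, and reads shared by the copies make its value uncertain.

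With TGF-β against vehicle, edgeR's quasi-likelihood test called 0 of the 79 genes, where 0.347% of all entries tested were called. DESeq2 also called 0, with 1.72% of all entries. At an unadjusted p under 0.05, 4 genes passed, all lower with TGF-β, against 7.29% of all entries, or 4.87% in that direction. These were SDHA, the flavoprotein of complex II, UQCR10 and the Rieske iron-sulfur protein UQCRFS1 of complex III, and NDUFS7, an iron-sulfur subunit of complex I. SDHA stood at 73.4, 83.6 and 96.4 CPM (lowest, median and highest library) with TGF-β and at 82.1, 91.5 and 99.6 CPM in vehicle. The groups overlapped, and the log2 fold change was -0.11 ± 0.047 (SE) with an adjusted p of 0.551. SDHA was lower in 6 of 6 batches, but batch 4 was close to a tie, at 96.4 CPM in both libraries. In batch 5 it stood at 81.8 CPM with TGF-β and 82.1 in vehicle. Over the 79 genes the median log2 fold change was -0.038, against -0.012 over all entries, and 26 genes were above 0, against 47.4% of all entries. The within-batch medians ran from -0.18 in batch 1 to 0.14 in batch 4 and were above 0 in 2 of 6 batches.

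With IL-4 + IL-13 against vehicle, 0 of 79 genes were called, against 0.633% of all entries, and DESeq2 called 0, against 1.95%. At an unadjusted p under 0.05, 12 genes passed, all higher, where 9.1% of all entries passed and 4.42% passed in that direction. UQCR11, a small subunit of complex III, had the lowest p of 0.0034. It stood at 42, 46.3 and 55.0 CPM with IL-4 + IL-13 and at 31.9, 41.2 and 54.2 CPM in vehicle. Its values overlapped between the groups yet were higher in 6 of 6 batches, with a log2 fold change of 0.19 ± 0.056 (SE, adjusted p = 0.211). The median over the 79 genes was 0.076, against -0.0077 over all entries, and 68 genes were above 0, against 48.5% of all entries. The within-batch median was above 0 in 5 of 6 batches, and in batch 1 it was -0.10. Higher values in 6 of 6 batches were found for 8 genes, against 2.28% of all entries: NDUFA6, NDUFB5 and NDUFS4 of complex I, UQCR11 and UQCRC2 of complex III, and ATP5MF, ATP5PB and ATP5PD of complex V.

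With IL-6 against vehicle, 0 of 79 genes were called, and 0% of all entries were called by edgeR. DESeq2 called 0 of the 79 and 0.449% of all entries. At an unadjusted p under 0.05, 6 genes were higher and 1 was lower, against 4.77% of all entries in either direction. ATP5MC2 had the largest difference among them, with 74.8, 86.6 and 147 CPM with IL-6 and 61.6, 72.8 and 118 CPM in vehicle. The groups overlapped widely, and the log2 fold change was 0.31 ± 0.12 (SE, adjusted p = 0.850), with higher values in 5 of 6 batches. Batch 2 held most of it, at a log2 ratio of 1.25 with 61.6 CPM in its vehicle library, the one that stood apart, where the other 5 batches lay between -0.0018 and 0.29. SDHA was again the lower gene, at 70.9, 83.1 and 92.9 CPM, with a log2 fold change of -0.12 ± 0.047 (SE, adjusted p = 0.850) and lower values in 6 of 6 batches. These 3 comparisons share the vehicle libraries, so a vehicle value enters each of them. The median over the 79 genes was 0.058, against -0.013 over all entries, with 61 genes above 0, against 47.3% of all entries. The within-batch median ran from -0.11 in batch 1 to 0.20 in batch 2, and without batch 2 the fitted median was 0.029.

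The 95% confidence interval of the log2 fold change lay within 0.5 of 0 for 73 of 79 genes with TGF-β, 72 with IL-4 + IL-13 and 71 with IL-6, each against vehicle, and within 1 for 76 in each. The exceptions at 1 were SDHB, COX8C and ATP5MGL. The median biological coefficient of variation was 0.095 for the 79 genes and 0.116 for all 10264 entries with a mean log2 CPM of 4 or more.

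Between TGF-β and IL-4 + IL-13, 3 of 79 were called, all lower with TGF-β, where 2.98% of all entries were called and 1.9% were called lower, so the share was near the background. DESeq2 called 5 of the 79, against 5.35% of all entries, adding NDUFA1 and NDUFA7. None of the 79 reached a log2 fold change of 1 with an adjusted p under 0.05.

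UQCR11 (chr19, 1597169 to 1605462, minus strand, 3 exons) stood at 48.8, 39.9, 36.8, 35.9, 37.9 and 42.9 CPM in batches 1 to 6 with TGF-β and at 55.0, 48.0, 44.7, 42, 48.5 and 44.7 CPM with IL-4 + IL-13. The groups overlapped between batches, while within each batch the TGF-β library was the lower. The log2 fold change was -0.23 ± 0.056 (SE), with an edgeR adjusted p of 0.0285. Over the alternative settings that adjusted p ran from 0.00333 to 1.00.

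UQCR10, another small subunit of complex III (chr22, 29767369 to 29770413, plus strand, 2 exons), stood at 43.4, 48.8 and 58.4 CPM (lowest, median and highest) with TGF-β and at 50.7, 56.7 and 60.0 CPM with IL-4 + IL-13. Batch 1 was the highest in both groups, and it held the smallest difference between them, with a log2 ratio of -0.039 where the other batches lay between -0.28 and -0.18. The log2 fold change was -0.19 ± 0.049 (SE, edgeR adjusted p = 0.0396, from 0.00473 to 1.00 over the alternatives).

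NDUFB5, an accessory subunit of complex I (chr3, 179604794 to 179627647, plus strand, 6 exons), stood at 44.5, 48.6 and 69.6 CPM with TGF-β and at 47.0, 60.1 and 79.7 CPM with IL-4 + IL-13. The gene overlaps the locus LOC124906348 in RefSeq, and whether the counting used strand is not given in the sources used here. The log2 fold change was -0.25 ± 0.067 (SE, edgeR adjusted p = 0.0437, from 0.00466 to 1.00 over the alternatives), and batch 2 held the smallest difference. NDUFA1, a membrane-arm subunit of complex I encoded on chromosome X, had the larger log2 fold change of -0.26 ± 0.073 but an adjusted p of 0.0573.

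**Figure D2:**
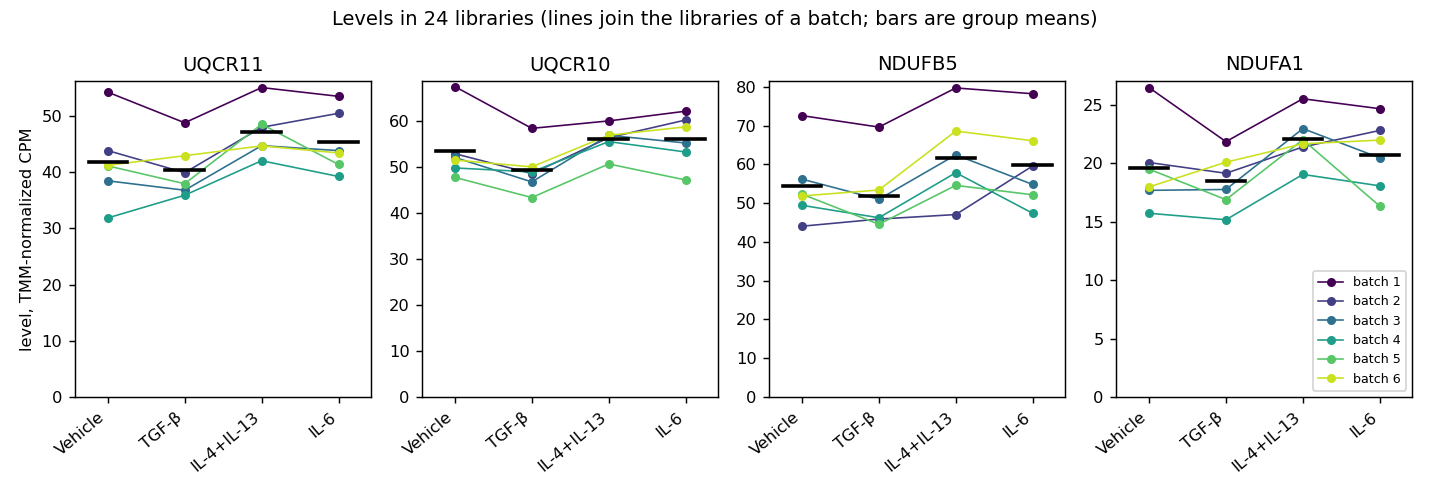
TMM-normalized CPM of UQCR11, UQCR10, NDUFB5 and NDUFA1 in 24 libraries, by treatment group, with lines joining the libraries of a batch and black bars at group means. In every batch the TGF-β point lies below the IL-4+IL-13 point, and batch 1 is the highest in every group.

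Among the genes with the 3 lowest p over the 4 groups in their complex, several missed the threshold in this comparison. NDUFB3, an accessory subunit of complex I, stood at 20.8, 26.4 and 28.8 CPM (lowest, median and highest) with TGF-β and at 24.1, 29.4 and 30.7 CPM with IL-4 + IL-13. Its log2 fold change was -0.18 ± 0.061 (SE, edgeR adjusted p = 0.136), with lower values in 6 of 6 batches. COX8A, the ubiquitous form of the smallest complex IV subunit, stood at 42.5, 49.7 and 53.3 CPM (lowest, median and highest) with TGF-β and at 48.3, 58.0 and 63.1 CPM with IL-4 + IL-13. Its log2 fold change was -0.20 ± 0.071 (SE, edgeR adjusted p = 0.176), with lower values in 5 of 6 batches. The groups overlapped for both genes. ATP5MF, a membrane subunit of the ATP synthase, stood at 28.5, 36.4 and 46.2 CPM (lowest, median and highest) with TGF-β and at 36.5, 38.9 and 50.8 CPM with IL-4 + IL-13. Its log2 fold change was -0.18 ± 0.062 (SE, edgeR adjusted p = 0.153), with lower values in 5 of 6 batches. ATP5MG, another membrane subunit of the ATP synthase, stood at 83.3, 91.0 and 104 CPM (lowest, median and highest) with TGF-β and at 97.1, 104 and 108 CPM with IL-4 + IL-13. Its log2 fold change was -0.17 ± 0.063 (SE, edgeR adjusted p = 0.234), with lower values in 6 of 6 batches. These groups overlapped as well.

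The calls depended on the batches used. Without batch 1, 2, 3, 4, 5 or 6, edgeR called 1, 9, 0, 0, 0 and 1 of these genes, and without vehicle batch 2 alone it called 5. A fit of treatment without batch called 0. A fit of only the libraries compared also called 0, and DESeq2's scaling factors in edgeR (RLE) gave 1. The share of all entries called under these settings is not given here, so whether the shifts are particular to these genes was not tested.

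In the comparison of TGF-β with IL-4 + IL-13, 75 of the 79 genes were below 0, where 49.1% of all entries were above 0, and 72 to 75 were below 0 under every alternative setting, other scaling factors included. The 4 genes above 0 were UQCRHL, COX6B2, COX8C and ATP5MGL. The median was -0.10, against -0.0048 over all entries and -0.0065 over the entries with a mean log2 CPM of 4 or more. The within-batch median was below 0 in 6 of 6 batches, from -0.16 in batch 5 to -0.065 in batch 6. By complex the medians were -0.10 for I, -0.15 for II, -0.10 for III, -0.11 for IV and -0.09 for V. Lower values in 6 of 6 batches were found for 25 genes, against 5.64% of all entries, with 9 in complex I, 1 in II, 3 in III, 4 in IV and 8 in V. At an unadjusted p under 0.05, 20 genes passed, all lower, against 12.2% of all entries and 7.2% in that direction. The 79 genes were measured in the same 24 libraries, so their directions are not independent observations, and this comparison uses treated libraries that also enter the comparisons against vehicle.

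**Figure D3:**
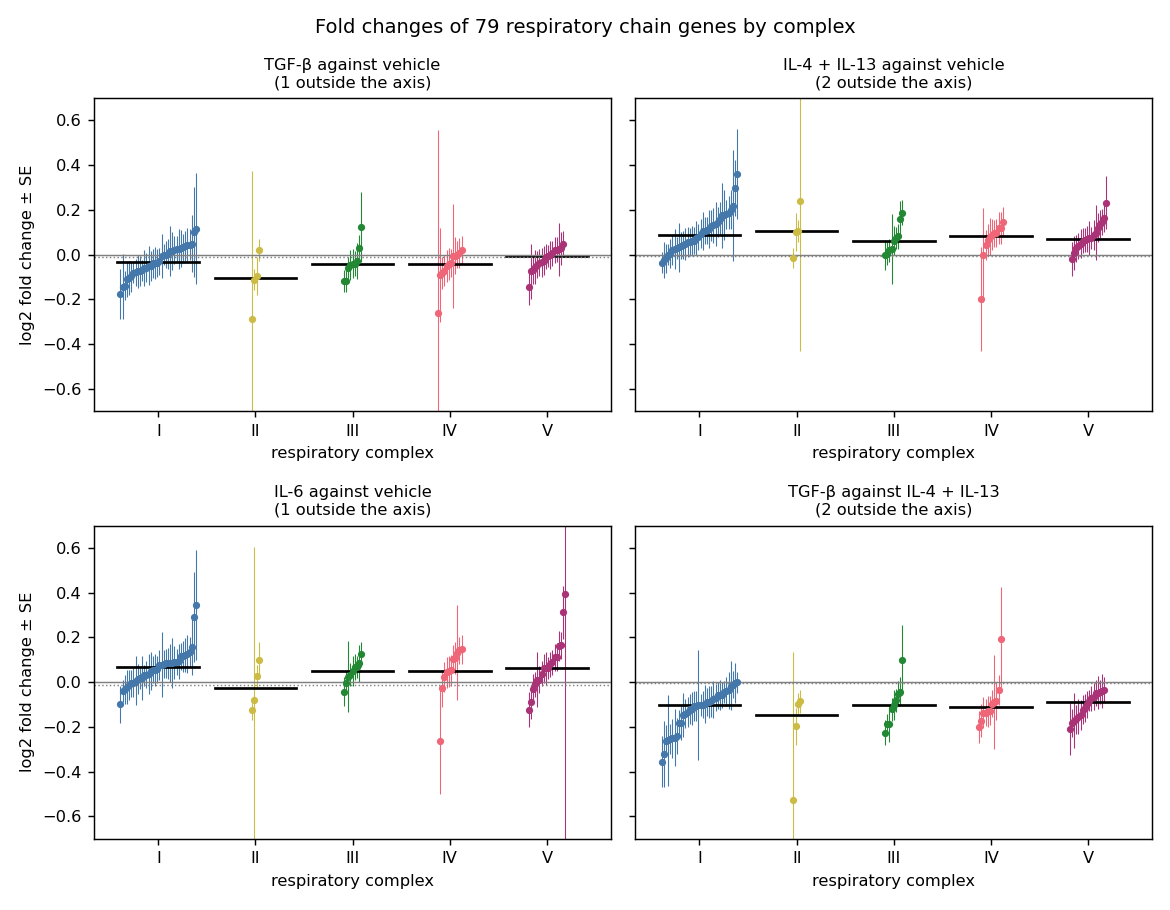
Log2 fold change of each gene, with its SE, in the 4 comparisons, by complex; black bars are the medians of a complex and the dotted line the median of all entries. In the panel of TGF-β against IL-4 + IL-13 nearly all points lie below 0, with medians between -0.15 and -0.09, and in the panels against vehicle 26, 68 and 61 of 79 genes lie above 0; COX8C and ATP5MGL lie outside the axis in some panels.

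The summed share of counts showed the same order, but it is drawn from the same counts and is no separate support. Genes with high counts, ATP5F1A and ATP5F1B above all, weigh most in it. How often other sets of genes separate these groups was not tested. The 79 genes took 0.520 to 0.549% of counts in the 6 TGF-β libraries and 0.564 to 0.599% in the 6 IL-4 + IL-13 libraries, so these groups did not overlap. Vehicle libraries ran from 0.529 to 0.585% and IL-6 libraries from 0.526 to 0.619%, and both overlapped with every other group. The difference between TGF-β and IL-4 + IL-13 within a batch ran from -0.066 percentage points in batch 1 to -0.033 in batch 6.

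**Figure D4:**
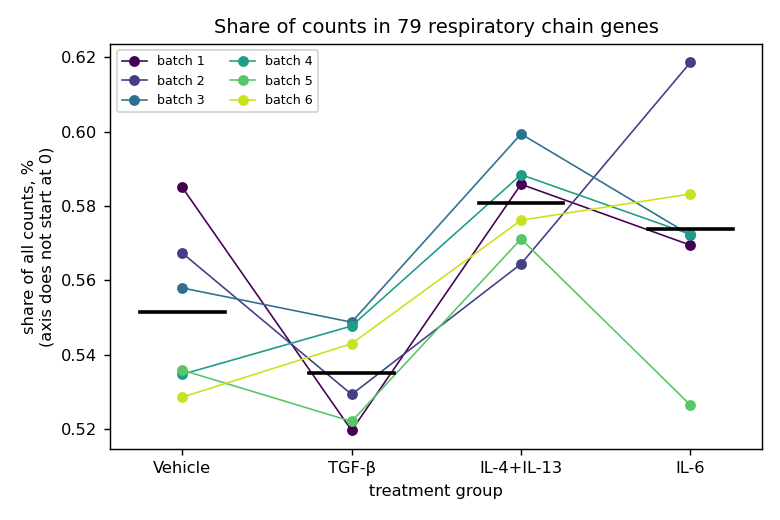
Share of all counts in the 79 genes, in percent, for each library, with lines joining the libraries of a batch and black bars at group means; the axis does not start at 0. All 6 TGF-β points, at most 0.549%, lie below all 6 IL-4+IL-13 points, at least 0.564%.

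The median was also below 0 in other lists of genes for mitochondria and ribosomes. Of the 77 mitochondrial ribosomal protein genes tested, 1 was called in this comparison, and the median was -0.09, with 6 genes above 0. This was MRPS6, a protein of the small mitochondrial ribosomal subunit, lower with TGF-β at a log2 fold change of -0.56 ± 0.075 (SE, adjusted p = 0.000207), and it was also lower than in vehicle, at -0.55 ± 0.075 (adjusted p = 0.00616). The 80 cytosolic ribosomal protein genes had a median of -0.11 with none called, the 51 assembly factors -0.069 with none called, and the 13 mtDNA protein genes -0.15 with none called. The 13 citric acid cycle genes had a median of -0.073, with none called.

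Among 20 genes of glycolysis and lactate metabolism, 1 was called in that comparison: PFKP, the platelet form of phosphofructokinase, was lower with TGF-β by a log2 fold change of -1.22 ± 0.16 (SE, adjusted p = 0.000183). Against vehicle PFKP rose with IL-4 + IL-13 by 1.12 ± 0.16 (adjusted p = 0.00135). The median of the 20 genes was -0.06 in the direct comparison, with 6 genes above 0. The within-batch median had the opposite sign in 5 of 6 batches and ran from -0.35 to 0.046. Of 15 regulators of mitochondrial biogenesis, PPARGC1A, NRF1 and TFAM among them, 1 was called: EPAS1, a hypoxia-inducible factor, with a log2 fold change of -0.62 ± 0.15 (adjusted p = 0.0201), and the median of the 15 was -0.016.

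Some markers of other cells differed in the same comparison. Of the 7 mesenchymal markers, COL1A1 was higher with TGF-β by 1.31 ± 0.26 (SE, adjusted p = 0.00675). The median log2 fold change of the 7 was 0.069, with 4 genes above 0. Their within-batch median was above 0 in 4 of 6 batches. Their summed level ran from 4173 to 13442 CPM with TGF-β and from 2670 to 6264 CPM with IL-4 + IL-13. The 6 Schwann or glial markers summed to 93.8 to 175 CPM with TGF-β and to 63.3 to 112 CPM with IL-4 + IL-13. Their median log2 fold change was 0.057, with 3 genes above 0. Of the 3 endothelial markers, KDR was lower by a log2 fold change of -1.30 ± 0.27, with sums from 14.2 to 73.7 and from 26.3 to 157 CPM. Of the 4 epithelial markers 1 was called, CDH1, higher by 1.27 ± 0.33, while the summed level had a median of 333 CPM (217 to 999) with TGF-β and of 347 CPM (221 to 528) with IL-4 + IL-13. The 9 muscle markers tested, of 10 listed, summed to 17.4 to 28.1 and 18 to 30.3 CPM; MYOD1 was called lower with TGF-β and MYH8 was at 0. None of the 11 sensory neuron, 4 cycling or 3 tested pluripotency markers was called, and POU5F1 had 1 count in all. The part of these differences in the respiratory chain values was not tested.

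In complex II, SDHA, SDHB, SDHC and SDHD had log2 fold changes of -0.10 ± 0.047, -0.53 ± 0.66, -0.09 ± 0.050 and -0.20 ± 0.083 (SE) between TGF-β and IL-4 + IL-13, and none was called. SDHB, the iron-sulfur subunit, was erratic: its counts were split over 2 entries, of which the one used held 30.3%, and it ranged from 2.08 to 17.1 CPM within the IL-4 + IL-13 group. Its 95% interval, from -1.93 to 0.88, spans 0. The other entry, with 69.7% of the SDHB counts, had a log2 fold change of 0.28 (unadjusted p = 0.0663, adjusted p = 0.466 by edgeR), the opposite sign. The direction of SDHB therefore depended on the entry, and the complex II median of -0.15 includes the entry with fewer counts. Counts were also split over several entries for NDUFA6, NDUFA11, NDUFB9, NDUFB10, NDUFS1, NDUFS3, UQCRC2, COX5B and COX8C.

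Over the 4 groups tested together, 0 of 79 genes were called, against 1.81% of all entries. At an unadjusted p under 0.05, 13 passed, against 9.62% of all entries, with 6 in complex I, 1 in complex II, 2 in complex III, 0 in complex IV and 4 in complex V. DESeq2 called 4, against 4.34% of all entries.

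Over the 6 batches, 50 of 79 genes were called, against 56.8% of all entries, and DESeq2 called 59, against 61.1%. Whether these shares differ was not tested, and the background includes entries at low counts. The counts by complex were 21 of 36 for I, 3 of 4 for II, 4 of 9 for III, 7 of 12 for IV and 15 of 18 for V. SDHC, for instance, had a mean log2 CPM of 6.52 in batch 1 and 5.82 in batch 5, a range of 0.70 between batches. In 41 of the 50 called genes the level in batch 1 was above the mean of batches 2 to 6. The same share over all called entries was not computed, so this is not shown to be particular to these genes. COX5A, a structural subunit of complex IV, was instead lowest in batch 1 at 5.77 and highest in batch 3 at 6.37. The median range between batches was 0.34 on the log2 scale over the 79 genes. Without batch 1, 33 genes were called over batches, and without batch 6, 33 were called. The share of all entries called under these settings is not given here. Whether the lower counts are particular to these genes was not tested.

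**Figure D5:**
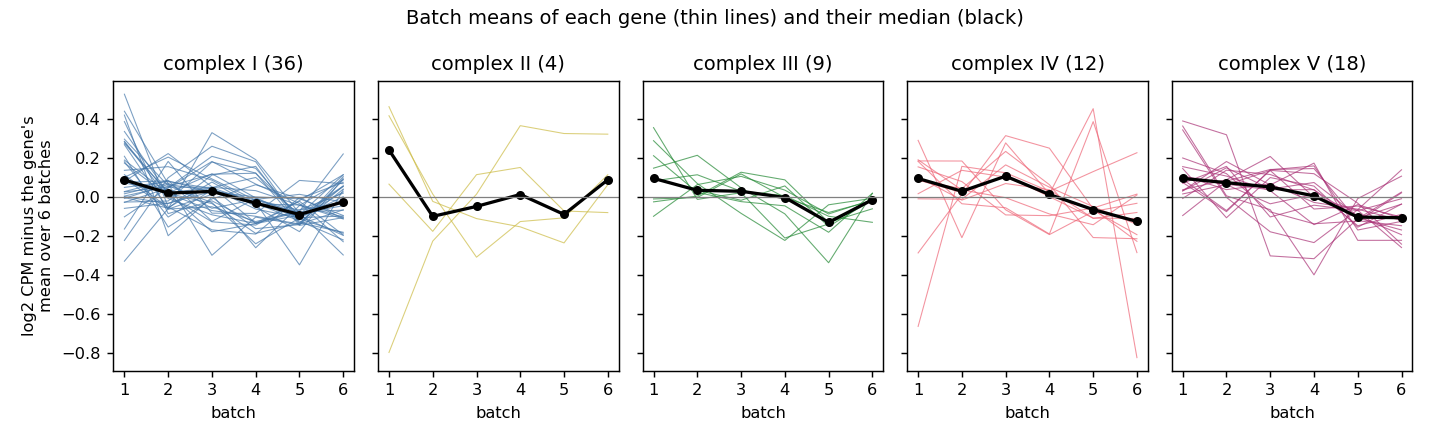
Mean log2 CPM of each gene in each batch, over the 4 libraries of the batch, minus the mean of the gene over 6 batches, by complex; thin lines are genes and the black line is their median. The median of all 79 genes is 0.093 in batch 1 and -0.091 in batch 5, and single genes depart in both directions.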

How the data were processed

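RNA from 24 libraries was sequenced on an Illumina NovaSeq instrument. Per the labels, reads were trimmed with Trimmomatic 0.30 and aligned to GRCh38.p14. Which tools aligned and counted the reads, and whether counting used strand, is not given in the sources used here. The authors deposited raw counts for each entry, without normalization, and the first entry of a symbol was used where several shared it.

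Entries with a total of at least 10 counts were fitted with edgeR 4.0.16 (TMM factors, robust quasi-likelihood F test, batch plus treatment, 24 libraries) in R 4.3.3, and p-values were adjusted by Benjamini-Hochberg over all 29377 entries. Called means an adjusted p below 0.05. The standard error is the absolute log2 fold change divided by the square root of F. CPM used TMM factors, and log2 CPM a prior count of 2. DESeq2 1.42.0 was run as an alternative. The scripts were tested on simulated data, in which DESeq2 called more unchanged entries than edgeR did, so its background shares may hold more false calls. Libraries of a batch were mostly alike: same-batch deviations from group means correlated at a median r of 0.646 over 36 pairs (lowest -0.052). The median was -0.171 over 240 pairs from different batches. Subtracting group means by itself draws such pairs below 0, so that value is no separate support for the pairing. Nothing says that a batch was more than 1 differentiation. With batch in the fit, p-values are set against the spread left within batches, over these 6 differentiations.

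The members and gene lists were chosen with earlier results of these data known. Members were named if called, if among the 3 lowest p over the 4 groups or the highest per length in their complex, if isoforms, if SDH genes, or if under the minimum count. Genes of other lists were named if called or isoform partners. Other genes were chosen after their values were seen. The result of 1 marker gene is not reported here. Positions and promoters were from RefSeq (GRCh38.p14), which placed 78 of the 79 by symbol. Alternatives were other scaling factors, filters, entry choices, DESeq2, no batch term, only the groups compared, and each batch left out.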

Additional observations from a re-analysis of the deposited data

Results flagged for a closer look

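Values were screened in the 4 groups for 15 named genes and for the shares of counts in respiratory chain and mtDNA genes, 68 groups of 6 libraries in all. A library was marked where its gap to the nearest other value, divided by the range of its group, was above 0.625. Chance marks about 1 in 20 groups, and 10 values were marked.

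Vehicle batch 1 was marked as the highest vehicle library for 5 genes: UQCR10 at 67.5 CPM where the other 5 ran from 47.8 to 52.9, SDHC at 94.1 against 53.9 to 66.6, SDHD at 44.5 against 24.7 to 29.3, COX6B1 at 90.1 against 61.9 to 70.6, and ATP5MG at 119 against 82.2 to 93.7. Batch 1 was also marked as the highest for NDUFB5 with TGF-β, at 69.6 CPM against 44.5 to 53.4, and for SDHC with IL-6, at 90.6 against 57.0 to 69.5. IL-6 batch 2 was the highest for COX7A2, at 93.0 CPM against 73.5 to 78.8, and for ATP5PO, at 167 against 114 to 132. NDUFB3 was lowest in IL-4 + IL-13 batch 6, at 24.1 CPM against 28.9 to 30.7.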

How the results depend on the processing

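In the 3 comparisons with vehicle, 0 genes were called under every alternative. The medians over the 79 genes kept their sign and moved by less than the spread between batches under every alternative, from -0.063 to -0.0017 with TGF-β, 0.056 to 0.12 with IL-4 + IL-13, 0.029 to 0.091 with IL-6 and -0.13 to -0.082 between TGF-β and IL-4 + IL-13. The count of genes called in that last comparison, 3, was 1 with RLE factors, 5 with library size only, 5 with DESeq2 and 0 with only the groups compared; without the replicate block, which pairs libraries by batch, it was 0, and with a library or batch left out it ran from 0 to 9. Over the 4 groups together, 0 genes became 2 with library size only, 4 with DESeq2 and 0 to 2 with a library or batch left out. Over batches, 50 became 33 to 57 with a library or batch left out. The cause of these shifts was not tested. Except for DESeq2, the share of all entries called under each alternative is not given here. Summing the entries of a symbol, an alternative chosen after seeing the data, kept each count within 1.5 times, with 62 genes called over batches. The alternatives were run for 15 named genes, each in 1 comparison, and none of these changed sign. The other single-gene values were not recomputed.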
